A study of Mus musculus with 8 samples.

Results

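The oligosaccharyltransferase (OST) is the enzyme of the endoplasmic reticulum (ER) membrane that places N-linked glycans on secretory and membrane proteins. It is described here through the mRNA of 10 subunit genes, Stt3a, Stt3b, Rpn1, Rpn2, Ddost, Dad1, Ostc, Krtcap2, Magt1 and Tusc3, which were listed by name. All 10 were found among the 16538 genes of the deposited expression table. The RNA came from sorted DN3 thymocytes, the early CD4-CD8- stage at which the T cell receptor β chain is first tested, of C57BL/6 mice aged 6 weeks. Control mice carried Sel1l-f/f alleles without Cre, and Sel1l CKO mice carried the same floxed alleles together with hCD2cre, a transgene with human CD2 regulatory sequences that is active from the early T lineage progenitors onwards. There were 4 RNA-seq libraries of each genotype. SEL1L is the adaptor of the HRD1 ubiquitin ligase in ER-associated degradation (ERAD), the route by which misfolded proteins leave the ER to be degraded. The comparison asks how mRNA for the glycan transfer machinery differed between DN3 cells with and without this deletion.

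The OST takes an oligosaccharide preassembled on the lipid dolichol and transfers it to asparagines of proteins that enter the ER. It exists in forms that share most subunits and differ in the catalytic one. The STT3A form sits at the protein translocation channel and works as the chain enters, and its particular subunits are OSTC and KRTCAP2. The STT3B form carries MAGT1 or TUSC3, thioredoxin-like oxidoreductases, and modifies sites that the STT3A form has skipped. The T cell receptor chains, the pre-Tα chain and several CD3 chains that DN3 cells assemble are N-glycoproteins.

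The proximal promoters are shown as background, because all tested subunits rose, though by unequal amounts, as described below. Whether promoter sequence had a part in the rise was not tested. RefSeq windows on GRCm38 reached from 250 bases before to 50 bases after a start site, and 13 windows covered 10 of 12 genes (the 10 subunits with Ost4 and Tmem258), while Ostc and Tusc3 had none in the table. The stretches below run 5′ to 3′ on the strand of the gene, end before the annotated start, and belong to the 4 subunits with a window whose mRNA rose most and to Stt3b, the catalytic partner of Stt3a. Capitals mark CCAAT (the letters bound by NF-Y) or CCACG, on either strand.
Rpn1, chr6:88084323-88084472, + strand: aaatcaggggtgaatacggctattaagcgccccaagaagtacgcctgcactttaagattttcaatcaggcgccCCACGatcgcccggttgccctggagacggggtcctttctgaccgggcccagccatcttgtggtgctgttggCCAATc
Magt1, chrX:106011907-106012052, - strand: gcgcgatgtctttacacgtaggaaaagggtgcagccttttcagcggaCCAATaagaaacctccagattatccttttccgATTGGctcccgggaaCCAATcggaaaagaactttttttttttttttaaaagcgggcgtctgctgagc
Stt3a, chr9:36767680-36767829, - strand: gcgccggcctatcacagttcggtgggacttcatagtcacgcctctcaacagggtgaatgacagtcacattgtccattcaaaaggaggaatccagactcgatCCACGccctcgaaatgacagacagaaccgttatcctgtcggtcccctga
Ddost, chr4:138304580-138304729, + strand: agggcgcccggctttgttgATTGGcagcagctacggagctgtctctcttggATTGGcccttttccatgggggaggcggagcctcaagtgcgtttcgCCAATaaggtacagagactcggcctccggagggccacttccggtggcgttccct
Stt3b, chr9:115310469-115310618, - strand: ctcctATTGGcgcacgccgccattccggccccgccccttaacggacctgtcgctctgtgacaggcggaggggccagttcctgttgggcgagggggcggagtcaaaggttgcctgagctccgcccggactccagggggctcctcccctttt
The combined letters of the ER stress elements are rare in any promoter of this length, so that their absence from a few windows says little. The element ERSE (CCAAT, any 9 bases, then CCACG) was in none of the 13 windows, against 0.119% of all 32851 windows, and the element UPRE (TGACGTGG) was in none, against 0.676%. The element ERSE-II (ATTGG, any 1 base, then CCACG) was in 1 of 13 windows, that of Krtcap2, against 0.0365% of all windows. It began 18 bases after a RefSeq start, inside annotated exon sequence, and is in capitals here.
Krtcap2, chr3:89246481-89246509, + strand: gggacacggATTGGACCACGgacggggcg
The shorter parts were common. CCAAT alone was in 8 of 13 windows and in 37.4% of all windows, and CCACG alone was in 9 of 13 windows and in 32.8% of all windows. Both strands were searched, and both short motifs overlap parts of the longer ones. A match is only a match of letters in this window.

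Levels below are RPKM as deposited, reads scaled by gene length and library size. The gene length behind them was the whole span with introns for most genes, so levels of different genes are compared only in the section on exon length. The libraries held 32900253 to 50401359 reads on genes. Sel1l (ENSMUSG00000020964.14, chr12:91806043-91849157, - strand) was 1.83, 1.66, 1.61 and 1.57 RPKM in the controls and 0.918, 0.876, 1.32 and 1.23 RPKM in the Sel1l CKO libraries 1 to 4. Its mean was 65.1% of control (log2 fold change -0.59, SE 0.13, adjusted p = 0.0327, limma), and -0.89 within replicates 1 and 2 against -0.30 within replicates 3 and 4. The call was lost (adjusted p up to 0.0984) when any of the 4 control libraries or Sel1l CKO library 1 or 2 was left out. The RPKM of Sel1l covers the whole gene, so it does not measure the floxed part alone. The paper describes depletion with this Cre as efficient, from RT-PCR of Sel1l in thymocyte subsets and a western blot of SEL1L protein in DN3 cells. Sel1l CKO libraries 3 and 4 also stood apart on the second principal component, which held 22.1% of the variance. They lay at -15.21 and -15.79, against 10.68 and 5.14 for Sel1l CKO libraries 1 and 2. Controls 3 and 4, at -4.68 and 3.43, also lay below controls 1 and 2, at 8.41 and 8.02. Of 12 DN3 marker genes, all tested, 0 passed the adjusted p, but 11 of 12 were lower in Sel1l CKO libraries (median log2 fold change -0.22). In 3 of 12, Notch3, Cd3e and Cd3g, each Sel1l CKO library lay below each control library, a pattern seen in 5.59% of all tested genes. Summed over all 12 markers, the level was 673 to 798 RPKM in controls and 599 to 638 RPKM in Sel1l CKO libraries, without overlap. Thy1 was the highest of the 12, with a mean of 286 RPKM over all libraries. The plasma cell list, a secretory cell type with abundant OST, summed to 8.39 to 12.6 RPKM in controls and 10.2 to 29.5 RPKM in Sel1l CKO libraries. Nearly all of that was Mzb1 (log2 fold change 0.85, adjusted p = 0.136), while the defining markers Jchain, Sdc1 and Tnfrsf17 did not exceed 0.109, 0.0566 and 0.0388 RPKM in any library. The summed ranges of the gamma-delta T cell, erythroid (4 of 5 genes in the table, Alas2 at 0) and DP thymocyte lists overlapped between the groups. These sums follow their highest genes, such as Cd69 in the DP thymocyte list, at 1.64 to 18.1 RPKM in controls. The gamma-delta gene Blk was 0.546 to 0.706 RPKM in controls and 0.189 to 0.492 RPKM in Sel1l CKO libraries, without overlap. The other genes of that list overlapped. The myeloid list (5 of 6 genes in the table) was 2.15 to 2.48 RPKM in controls and 0.667 to 1.56 RPKM in Sel1l CKO libraries, without overlap. The B cell list was 8.22 to 10.2 against 5.31 to 8.22 RPKM. It just overlapped, with the lowest control at 8.22 and the highest Sel1l CKO library at 8.224 RPKM. The NK cell list (4 of 5 genes, Klre1 at 0) was 26.3 to 33.4 against 18.9 to 26.3 RPKM. It just overlapped too, with the lowest control at 26.28 and the highest Sel1l CKO library at 26.31 RPKM. The thymic epithelium list was 3.10 to 4.88 against 1.95 to 2.27 RPKM, and its main gene Epcam fell (log2 fold change -0.95, adjusted p = 0.00273, limma). The part of these lists in the results below was not tested. In bulk RNA, fewer cells of a type and less RNA per cell cannot be told apart.

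All 9 OST subunits that could be tested rose in Sel1l CKO DN3 cells. Rpn1 and Magt1 rose most, Ostc, Stt3a, Ddost and Krtcap2 followed, and Rpn2, Stt3b and Dad1 rose least. Tusc3, the remaining gene, lay below the filter and its groups overlapped. Among 6512 tested genes (mean level 1 RPKM or more), 5.28% were called at an adjusted p under 0.05, 4.27% higher and 1.01% lower, and 0 of 9 subunits were called lower. In all 9 subunits each Sel1l CKO library lay above each control library, a pattern seen in 9.15% of all tested genes (5.59% had the opposite pattern), and 6 of 9 passed a log2 fold change of 0.59 as well, against 2.47%. Their median log2 fold change was 0.75 (range 0.33 to 1.07), and that of all tested genes was 0.01. Within replicates 1 and 2 the log2 fold changes ran from 0.38 (Dad1) to 1.01 (Rpn1), and within replicates 3 and 4 from 0.28 (Dad1) to 1.14 (Rpn1). Without Sel1l CKO libraries 3 and 4, 9 of 9 were called, at 0.35 (Dad1) to 1.03 (Rpn1). In that fit more of the 6512 genes were called than in the main one, 713 higher and 627 lower against 278 and 66.

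**Figure D1:**
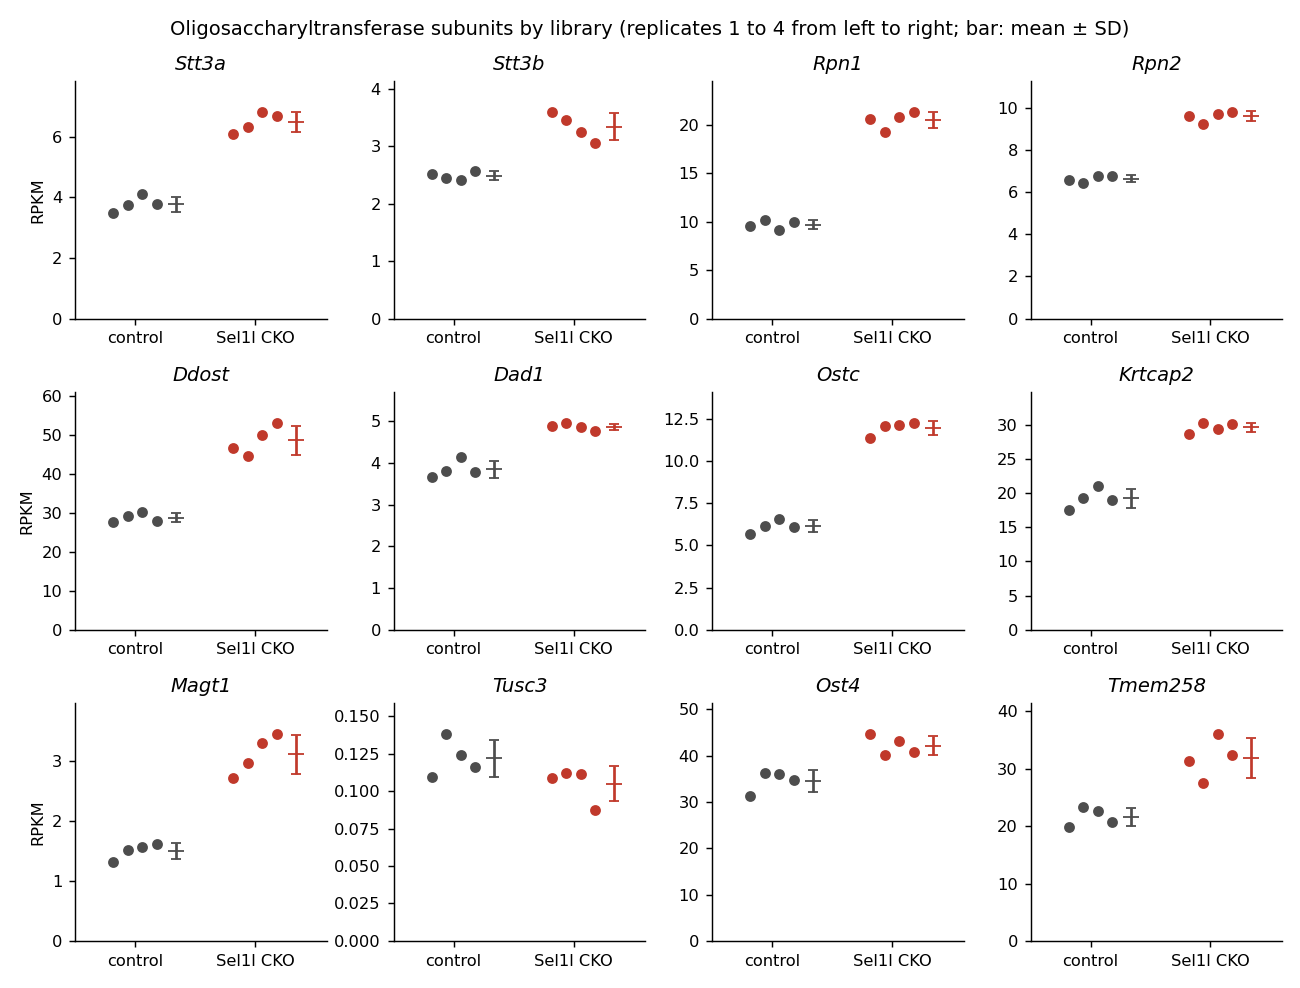
RPKM of each OST subunit in every library, 1 panel per gene with its own axis from 0, controls and Sel1l CKO libraries as separate points with the group mean and SD. In each panel except that of Tusc3 all Sel1l CKO points lie above all control points.

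Both catalytic subunits rose, Stt3a with the larger fold change. Stt3a (ENSMUSG00000032116.18, chr9:36729344-36767679, - strand), the catalytic subunit that acts during translocation, was 3.48, 3.73, 4.10 and 3.78 RPKM in the controls and 6.10, 6.32, 6.82 and 6.69 RPKM in the Sel1l CKO libraries. The groups were well separated, with the lowest Sel1l CKO library far above the highest control. The group mean rose from 3.77 ± 0.254 to 6.48 ± 0.328 RPKM (SD, n = 4 libraries per group here and below), 1.72-fold, with a log2 fold change of 0.77 (SE 0.07, adjusted p = 0.000227, limma). Stt3b (ENSMUSG00000032437.10, chr9:115242581-115310421, - strand), the catalytic subunit for skipped sites, was 2.52, 2.45, 2.41 and 2.58 RPKM in the controls and 3.60, 3.46, 3.25 and 3.06 RPKM in the Sel1l CKO libraries. Every Sel1l CKO library was higher, with libraries 3 and 4, the highest for Stt3a, the lowest of the group for Stt3b. The mean went from 2.49 ± 0.0752 to 3.34 ± 0.236 RPKM, 1.34-fold, with a log2 fold change of 0.41 (SE 0.07, adjusted p = 0.00843, limma). The longest run of bases that the Stt3a and Stt3b transcripts share was 18 bases, shorter than the sequenced reads.

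The plain log2 ratio of Stt3a to Stt3b, in which the scaling of a library cancels, was 0.46, 0.61, 0.77 and 0.56 in the controls and 0.76, 0.87, 1.07 and 1.13 in the Sel1l CKO libraries. The groups just overlapped, with 0.766 in control library 3 and 0.762 in Sel1l CKO library 1. The mean ratio was 0.36 higher in Sel1l CKO libraries (exact two-sided permutation test, p = 0.0571). With the pseudocount of 0.1 of the main scale the difference was again 0.36, but the same libraries fell just apart, at 0.742 and 0.746 (exact permutation p = 0.0286, the smallest that 4 against 4 libraries can give), so the call rests on the pseudocount. Without Sel1l CKO libraries 3 and 4 the difference on that scale was 0.22 (exact permutation p = 0.133, the smallest possible there).

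Among the subunits found in both forms, Rpn1 rose most and Dad1 least. Rpn1 (ENSMUSG00000030062.7, chr6:88084482-88105304, + strand) encodes ribophorin I, which holds certain membrane proteins near the catalytic site. It was 9.56, 10.2, 9.10 and 9.92 RPKM in the controls and 20.6, 19.3, 20.8 and 21.3 RPKM in the Sel1l CKO libraries. Its lowest Sel1l CKO library was far above the highest control. Its mean rose from 9.68 ± 0.456 to 20.5 ± 0.854 RPKM, 2.12-fold (log2 fold change 1.07, SE 0.06, adjusted p = 1.31e-05, limma), which placed Rpn1 62nd of 6512 genes by log2 fold change. Rpn2 (ENSMUSG00000027642.15, chr2:157279017-157326319, + strand), ribophorin II, was 6.60, 6.44, 6.76 and 6.74 RPKM in the controls and 9.60, 9.25, 9.72 and 9.79 RPKM in the Sel1l CKO libraries. Both groups were tight and far apart. Its mean went from 6.63 ± 0.152 to 9.59 ± 0.241 RPKM, 1.45-fold (log2 fold change 0.52, SE 0.05, adjusted p = 0.000434, limma).

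Ddost (ENSMUSG00000028757.4, chr4:138304730-138312628, + strand) encodes OST48, a membrane subunit beside the catalytic one. It was 27.7, 29.4, 30.2 and 28.0 RPKM in the controls and 46.8, 44.8, 50.2 and 53.1 RPKM in the Sel1l CKO libraries. The Sel1l CKO libraries spread more than the controls, all above them. Ddost rose on average from 28.8 ± 1.17 to 48.7 ± 3.69 RPKM, 1.69-fold (log2 fold change 0.75, SE 0.07, adjusted p = 0.000233, limma). Dad1 (ENSMUSG00000022174.8, chr14:54235479-54254104, - strand), named as a defender against cell death, is a small subunit of the membrane core, and its gene lies 11272 bases from the T cell receptor gene Trac. It was 3.67, 3.81, 4.13 and 3.77 RPKM in the controls and 4.87, 4.95, 4.86 and 4.76 RPKM in the Sel1l CKO libraries. The rise was small but the Sel1l CKO libraries were nearly equal. The mean went from 3.85 ± 0.201 to 4.86 ± 0.0769 RPKM, 1.26-fold (log2 fold change 0.33, SE 0.06, adjusted p = 0.0122, limma).

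Ost4 and Tmem258, a pair of very small subunits of the same shared core outside the list of 10, also were higher. Tmem258 (ENSMUSG00000036372.14, chr19:10204014-10207824, + strand) was 19.9, 23.3, 22.6 and 20.8 RPKM in the controls and 31.4, 27.6, 36 and 32.5 RPKM in the Sel1l CKO libraries (log2 fold change 0.55, SE 0.09, adjusted p = 0.00786, limma). Ost4 (ENSMUSG00000038803.7, chr5:30905885-30907788, - strand) was 31.2, 36.4, 36.1 and 34.7 RPKM in the controls and 44.6, 40.2, 43.1 and 40.8 RPKM in the Sel1l CKO libraries. Neither gene overlapped between the groups. The call of Ost4 was marginal (log2 fold change 0.29, SE 0.07, adjusted p = 0.0489, limma) and was lost in each of the 8 fits that left out a library, up to an adjusted p of 0.12. Antisense genes overlap Tmem258 (Fen1, 156 bases), Ost4 (Agbl5, 1081 bases), Krtcap2 (Trim46, 344 bases) and Rpn2 (Mroh8, 533 bases), and strand use in counting was not given in the sources used here, so reads in these overlaps could belong to either gene.

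The subunits particular to the STT3A form both rose. Ostc (ENSMUSG00000041084.8, chr3:130695912-130709444, - strand), which links this form to the translocon, was 5.68, 6.12, 6.57 and 6.11 RPKM in the controls and 11.4, 12.1, 12.1 and 12.2 RPKM in the Sel1l CKO libraries. All Sel1l CKO libraries lay close together and far above the controls. On average Ostc rose from 6.12 ± 0.363 to 11.9 ± 0.394 RPKM, 1.95-fold (log2 fold change 0.95, SE 0.06, adjusted p = 3.32e-05, limma). Krtcap2 (ENSMUSG00000042747.12, chr3:89245966-89249906, + strand), the gene with the ERSE-II letters, was 17.6, 19.3, 21 and 18.9 RPKM in the controls and 28.7, 30.2, 29.4 and 30.1 RPKM in the Sel1l CKO libraries. The groups were again clearly apart. The mean went from 19.2 ± 1.4 to 29.6 ± 0.714 RPKM, 1.54-fold (log2 fold change 0.62, SE 0.07, adjusted p = 0.000511, limma).

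Of the oxidoreductases of the STT3B form, Magt1 rose and Tusc3 did not pass a test. Magt1 (ENSMUSG00000031232.16, chrX:105968084-106011906, - strand), whose loss in people causes an immunodeficiency with defective T cells, was 1.32, 1.51, 1.57 and 1.61 RPKM in the controls and 2.72, 2.97, 3.30 and 3.45 RPKM in the Sel1l CKO libraries. Each Sel1l CKO library was far above each control. Magt1 thus rose on average from 1.5 ± 0.131 to 3.11 ± 0.326 RPKM, 2.07-fold (log2 fold change 1.0, SE 0.10, adjusted p = 0.000259, limma). The 4 Y-linked genes checked for the sex of the mice, Magt1 being X-linked, summed to 5.72 to 8.20 RPKM in controls and 3.98 to 6.30 RPKM in Sel1l CKO libraries, and their part in the level of Magt1 was not tested. Tusc3 (ENSMUSG00000039530.17, chr8:39005845-39165114, + strand), the alternative to Magt1, was 0.109, 0.138, 0.124 and 0.116 RPKM in the controls and 0.109, 0.112, 0.111 and 0.0874 RPKM in the Sel1l CKO libraries. The groups overlapped, and Tusc3 lay below the filter of 1 RPKM on its long gene span, with 458 to 1049 reads per library. Its mean was 86.2% of control (exact two-sided permutation test, p = 0.0857), and on recovered reads its log2 fold change was -0.21 (adjusted p = 0.342, limma voom). The longest run that the Magt1 and Tusc3 transcripts share was 19 bases.

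**Figure D2:**
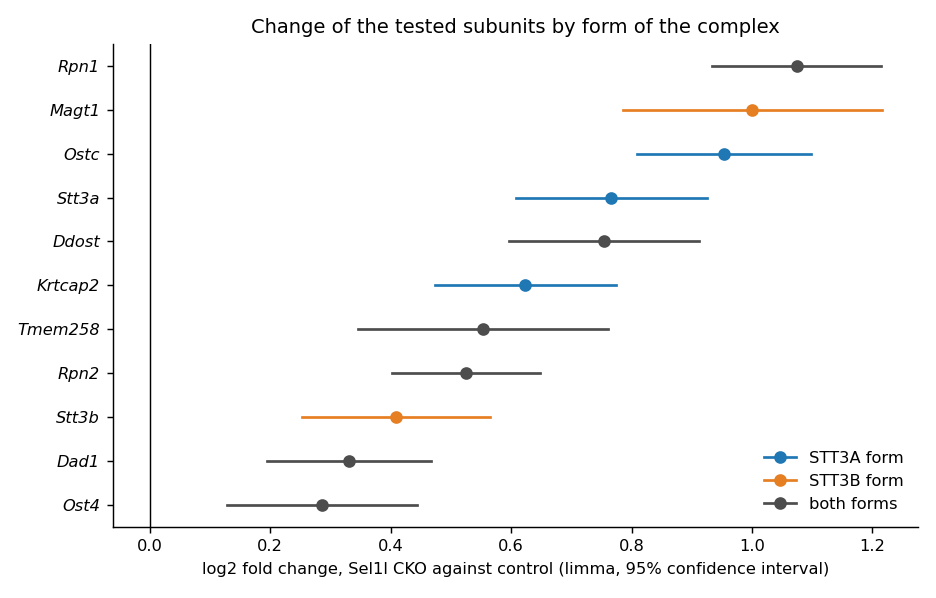
Log2 fold change of Sel1l CKO over control for each tested OST subunit with its 95% confidence interval (limma), ordered by size and coloured by the form of the complex that holds the subunit, with a line at 0. Values run from 0.29 for Ost4 to 1.07 for Rpn1, and no interval reaches 0.

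The subunits did not rise by equal amounts. The log2 ratio of 2 subunits within a library (RPKM + 0.1) was compared between the groups for all 36 pairs of the 9 tested subunits, and 26 of 36 pairs did not overlap between the groups (exact two-sided permutation test, adjusted p = 0.0396 over the 36 pairs). Each of the 26 had the smallest possible exact p, so the adjusted p was the same for all of them. The 36 ratios share 9 genes and are not independent. The share of such pairs among other genes was not computed. Without a pseudocount 26 of 36 did not overlap either, but Stt3a to Stt3b was no longer among them and Ddost to Magt1 was. Dad1 differed from 7 of 8 other subunits on both scales, and Stt3a from 7 of 8, or 6 of 8 without the pseudocount. The widest gap was between Rpn1 and Dad1, whose log2 ratio was 0.74 higher in Sel1l CKO libraries. The ribophorins, which are bound to the same core, differed by 0.55 in favour of Rpn1, from 0.54 ± 0.0926 in the controls to 1.09 ± 0.0250 in the Sel1l CKO libraries. Within the STT3B form the log2 ratio of Stt3b to Magt1 fell by 0.59, from 0.70 ± 0.133 to 0.10 ± 0.246. Within the STT3A form the log2 ratio of Ostc to Krtcap2 rose by 0.33, and that of Stt3a to Ostc fell by 0.19.

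On the scale with the pseudocount, 10 of 36 ratios overlapped between the groups. Rpn1, Magt1 and Ostc, the subunits with the largest rises, were such a set, with differences of 0.07 (Rpn1 to Magt1), 0.12 (Rpn1 to Ostc) and -0.05 (Ostc to Magt1). Stt3a and Ddost differed by 0.01 (exact permutation p = 0.743), and Stt3b and Dad1 by 0.08 (exact permutation p = 0.343). A p of this size does not show that 2 subunits moved equally.

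**Figure D3:**
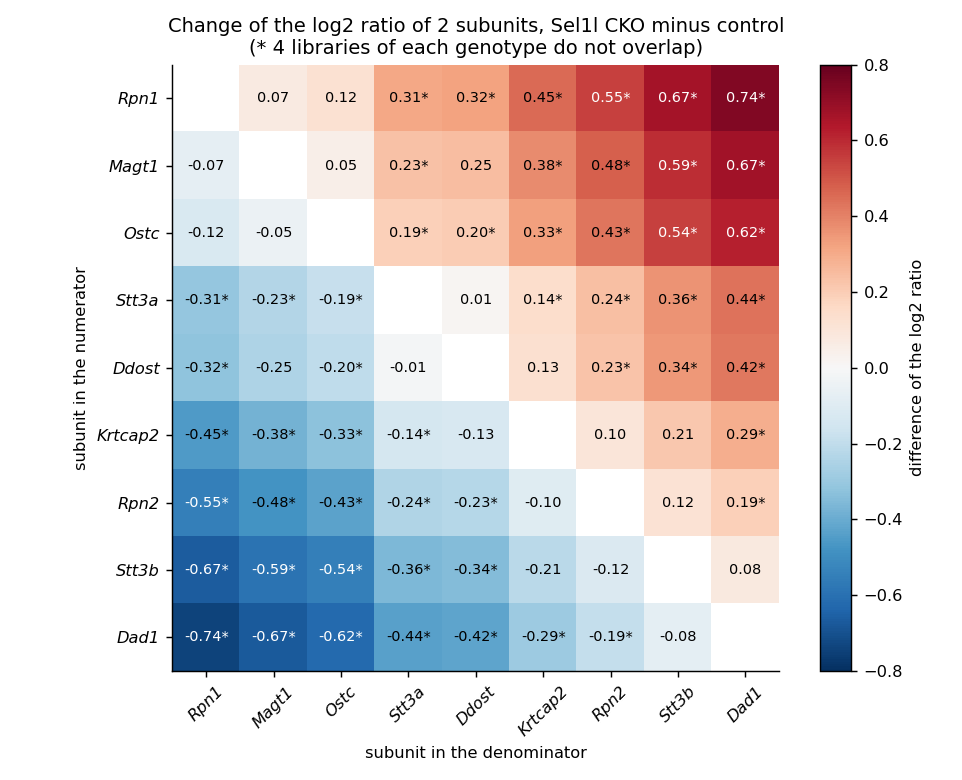
Difference between Sel1l CKO and control libraries in the log2 ratio (RPKM + 0.1) of the row subunit to the column subunit, for 36 pairs of 9 subunits (each shown in both orders), with an asterisk where the groups do not overlap. The largest value is 0.74 for Rpn1 to Dad1, and Stt3a to Ddost is near 0 at 0.01.

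Levels of different subunits were set side by side after the recovered reads were divided by the length of the merged exons. In controls Ddost was highest at 107 ± 4.34 RPKM on exon length, then Rpn2 at 70.8 ± 1.62. Ost4 (51.8 ± 3.55), Tmem258 (51.2 ± 3.79), Krtcap2 (49.8 ± 3.64) and Rpn1 (44.7 ± 2.11) followed, each overlapping with the next in its range over libraries. Stt3b, at 40.0 ± 1.21, and Ostc, at 30.1 ± 1.78, overlapped with neither neighbour. Dad1 (18.3 ± 0.956), Stt3a (16.2 ± 1.09) and Magt1 (14.1 ± 1.23) overlapped in that order, and Tusc3 was lowest at 5.65 ± 0.568. Stt3b was thus the more abundant catalytic mRNA on this scale in controls, and in Sel1l CKO libraries it still was, at 53.7 ± 3.78 against 27.8 ± 1.41 for Stt3a. Whether reads in introns were among those counted was not tested, and such reads would raise genes with long introns on this scale. Stt3b has the longer span, 67841 bases against 38336 for Stt3a. Rpn1 moved from the sixth to the third place, at 94.7 ± 3.95 RPKM on exon length. Magt1 reached 29.2 ± 3.06 in Sel1l CKO libraries, against 4.87 ± 0.546 for Tusc3. The order depends on the transcripts taken for the length: on the longest principal transcript Tmem258 came first among controls at 136 and Ostc was at 77.6. The gap between Magt1 and Tusc3 was also far smaller on that length, 14.5 ± 1.27 against 12.6 ± 1.27 in controls, where they overlapped, and 30.1 ± 3.15 against 10.9 ± 1.22 in Sel1l CKO libraries.

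**Figure D4:**
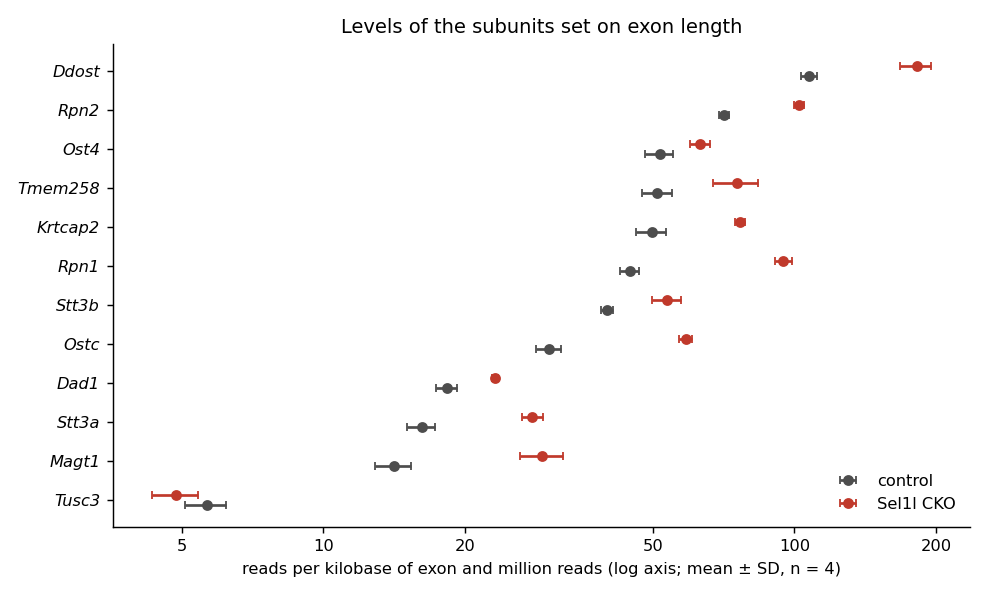
Level of each OST subunit on exon length (RPKM from recovered reads, log axis) in controls (grey) and Sel1l CKO libraries (red), with points for means and bars for the SD over 4 libraries. Ddost is highest and Tusc3 lowest in both groups on this length.

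The steps before and after the transfer were followed through 4 lists of genes. Their counts stand against the 4.27% of all tested genes that were called higher and the 1.01% called lower. Of 23 genes that assemble the lipid-linked oligosaccharide, 16 were tested, 3 were called higher and 0 lower, with a median log2 fold change of 0.08. The 3 were Dpagt1, which adds the starting sugar to dolichol (0.62, 4.96 ± 0.310 to 7.69 ± 0.925 RPKM, adjusted p = 0.00504), Alg2, a mannosyltransferase on the cytosolic face (0.71, 6.14 ± 0.537 to 10.2 ± 1.63 RPKM, adjusted p = 0.00782), and Alg12, a mannosyltransferase on the lumenal face (0.89, 1.08 ± 0.0811 to 2.12 ± 0.453 RPKM, adjusted p = 0.00719, limma). The other 13 tested assembly genes did not pass the test.

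Of 11 genes that supply sugar nucleotides, 8 were tested, 5 were called higher and 0 lower, with a median log2 fold change of 0.73. Uap1 and Pgm3 had control means below 1 RPKM and passed the filter only through their higher level in Sel1l CKO libraries. Among the 6 genes without them 3 were called higher, with a median of 0.44. Gmppa and Gmppb, subunits of the complex that makes GDP-mannose, rose from 6.53 ± 0.424 to 13.4 ± 2.97 RPKM and from 4.88 ± 0.410 to 9.88 ± 1.92 RPKM (log2 fold changes 1.0 and 0.99, adjusted p = 0.00367 and 0.00221, limma). Gfpt1, the rate-limiting enzyme of the hexosamine pathway, went from 1.16 ± 0.0472 to 2.05 ± 0.412 RPKM (log2 fold change 0.76, adjusted p = 0.00965, limma). Uap1, which makes UDP-GlcNAc, was at 0.881 ± 0.0240 RPKM in controls and 1.90 ± 0.121 RPKM in Sel1l CKO libraries.

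Downstream, 10 of 12 genes of glycan trimming and the calnexin cycle were tested, 5 were called higher and 0 lower, with a median log2 fold change of 0.34. The lectin chaperones Calr and Canx, which bind freshly glycosylated proteins, rose from 114 ± 5.01 to 267 ± 13.1 RPKM (log2 fold change 1.22, adjusted p = 5.58e-06, limma) and from 14.2 ± 0.587 to 23.7 ± 0.668 RPKM (log2 fold change 0.73, adjusted p = 8.54e-05, limma). Pdia3, their disulfide isomerase partner, rose by 1.18, and Edem2, a mannose-trimming factor that leads glycoproteins to ERAD, by 1.04 on the log2 scale. Of 11 translocon genes, 10 were tested, 8 were called higher and 0 lower, with a median of 0.80. The channel subunits Sec61g, Sec61b and Sec61a1 rose by log2 fold changes of 1.45, 1.23 and 1.21, and Ssr3, a subunit of the translocon-associated protein complex, by 1.08. In the OST and the other 3 lists no tested gene had a control mean below the filter. The median of the translocon list was thus near that of the OST (0.75) and that of the lipid-linked oligosaccharide list closer to that of all genes (0.01), with no test of the lists against each other.

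**Figure D5:**
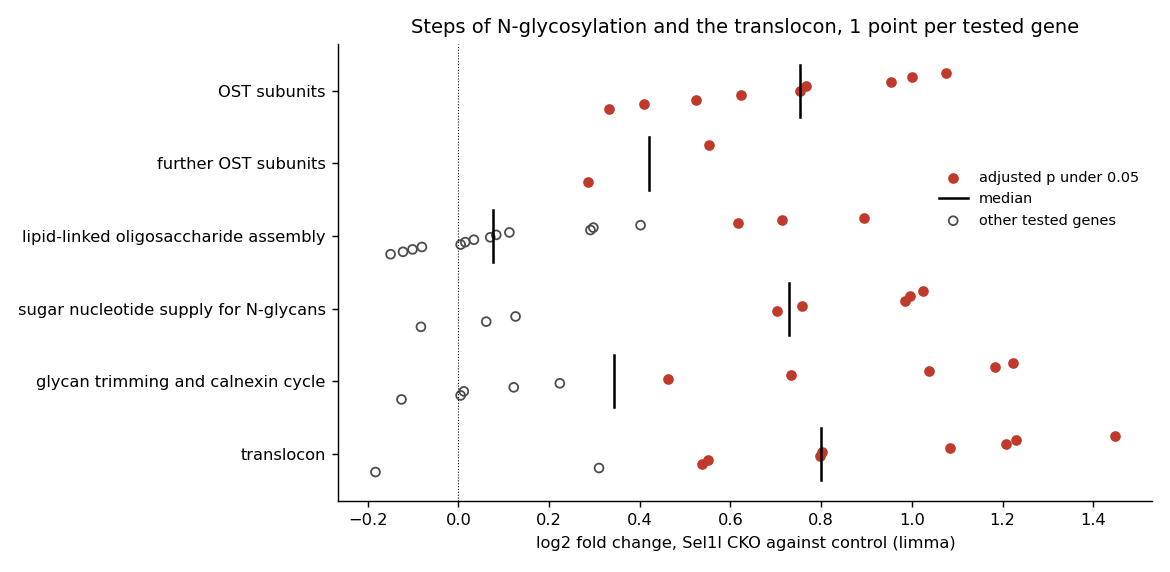
Log2 fold change of each tested gene in the OST, in the pair Ost4 and Tmem258 (further OST subunits) and in 4 lists of N-glycosylation and translocation genes, filled where the adjusted p was under 0.05, with a line at the median of each list. The medians are 0.75 for the OST, 0.08 for lipid-linked oligosaccharide assembly, 0.73 for sugar nucleotides (0.44 without Uap1 and Pgm3), 0.34 for trimming and the calnexin cycle and 0.80 for the translocon.

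The mean profile of the 9 tested subunits over the 8 libraries, as log2 differences from the control mean, was -0.07, 0.00, 0.05 and 0.01 in the controls and 0.68, 0.69, 0.74 and 0.75 in the Sel1l CKO libraries. Stt3a lay closest to it among the subunits (root-mean-square distance 0.0518) and Dad1 farthest (0.274). Outside the OST and the lists, the closest profiles over these 8 libraries were those of Tmed2 (distance 0.0374, log2 fold change 0.70) and Tmed10 (0.0442, 0.68), cargo receptors of vesicles between ER and Golgi, and Mydgf (0.0447, 0.66), a growth factor made in the ER.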

How the data were processed

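The deposited table holds RPKM values of 16538 genes in 8 libraries of DN3 thymocytes sorted after CD4/CD8 and lineage exclusion (stranded mRNA libraries, paired ends). Per the submitters' processing notes and the methods, reads were aligned to GRCm38 with STAR 2.5.2b and protein-coding genes were counted with HTSeq 2.7. The authors then set the counts to RPKM, and how they chose gene length is not given in the sources used here. Genes were identified in GENCODE M21 on the same build.

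RPKM steps gave whole reads (within 0.02 read) on the full gene span for 75.3% of 15643 genes, and 3504 other lengths, those of Rpn1, Stt3b and Tusc3 included, were solved from the steps. The recovered reads were used for depth, exon-length levels and limma voom (498 genes called), not for the main test. Counts behind the 9 tested subunits ran from 2346 to 22052 reads per library.

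The main test was limma 3.58.1 (R 4.3.3) with a mean-variance trend on log2(RPKM + 0.1), over 6512 genes with a mean of at least 1 RPKM, with Benjamini-Hochberg adjustment and a threshold of 0.05. A fold change on this scale understates the change of low genes. The pseudocount, filter, scaling, trend, library weights, replicate block, a term for replicates 1 and 2 against 3 and 4, and left-out libraries were varied. Ratios were compared by exact permutation over 70 assignments (scipy 1.17.1).

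The subunits and lists were chosen with earlier results of these data known. The text names Sel1l, the subunits, Ost4, Tmem258, up to 4 called genes with the largest change in each of the 5 lists, and the 3 genes nearest the mean profile. The 36 pair ratios, the ratios without a pseudocount and the principal transcript length were added after seeing the data, as was the comparison of replicates 1 and 2 with 3 and 4 for the named genes. Whether each library is a separate mouse is not given in the labels, and the methods speak of biological replicates, so p-values measure the spread between these libraries.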

Additional observations from a re-analysis of the deposited data

Results flagged for a closer look

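Tusc3 in Sel1l CKO replicate 4 was flagged as a library far from the others of its group, at 0.0874 RPKM against 0.109 to 0.112 RPKM in the other 3, a gap of 0.875 of the range of the group. It was the 1 flag among 62 groups of 4 libraries examined, and chance flags about 1 in 20 groups, or 3.1 here.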

How the results depend on the processing

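The count of OST subunits called higher was 9 in each of the 8 fits that left out a library and in 11 of the 13 other fits. It was 6 with a mean of at least 5 RPKM, where 6 subunits were tested, and 8 with the replicate block, where Dad1 had an adjusted p of 0.0532. The direction of each of these subunits was kept in each of those fits. Of Ost4 and Tmem258, 1 was called instead of 2 (Ost4 was lost) without a filter, with a filter of 0.1 and a pseudocount of 0.01, with median-of-ratios scaling, with quantile scaling, without the trend, with the replicate block, with voom, without Sel1l CKO replicates 3 and 4, and in each fit without 1 library (1 to 1). Whether the replicate numbers pair the libraries was not tested. Correlations of deviations were 0.162, 0.0973, 0.445 and 0.00514 between control and Sel1l CKO libraries of the same number. Those of different number ran from -0.376 to 0.404. With the replicate block 236 genes were higher and 81 lower.

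Over all genes, 278 were higher and 66 lower in the main setting. The counts were 182 and 36 with a mean of at least 5 RPKM, 458 and 182 with library weights, and 713 and 627 without Sel1l CKO replicates 3 and 4. The lower count was 102 with quantile scaling, 182 with the term for replicates 1 and 2 against 3 and 4, and 160 with voom, and 32 to 76 when 1 library was left out. With a mean of at least 5 RPKM, 2 of 3 sugar nucleotide genes and 3 of 8 trimming genes were called, with fewer genes tested. Sel1l stayed at -0.59 but lost its call without a filter (adjusted p = 0.0904) and with the replicate block (adjusted p = 0.0601), was -0.89 and -0.30 within replicates 1 and 2 and within 3 and 4, and ran from -0.69 to -0.51 without 1 library. The difference in the log2 ratio of Stt3a to Stt3b was 0.36 with a pseudocount of 0.01 (exact permutation p = 0.0571), without a pseudocount (0.0571) and with the replicate block (sign permutation, exact p = 0.125, the smallest possible), 0.22 without Sel1l CKO replicates 3 and 4, and 0.30 to 0.42 without 1 library, where no p below 0.05 is possible. On the longest principal transcript the control levels were 136 for Tmem258, 114 for Rpn2, 77.6 for Ostc, 64.6 for Krtcap2, 57.6 for Ost4, 55.5 for Rpn1, 24.7 for Stt3a, 20.5 for Dad1, 14.5 for Magt1 and 12.6 for Tusc3. Apart from the shorter lengths and smaller gene or library numbers, the cause of these changes was not tested. Depth did not limit the tested subunits, but Tusc3 had 458 to 1049 reads.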

Other observations

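Of the 15 named genes of the 4 lists, 9 were higher in Sel1l CKO libraries 3 and 4 than in libraries 1 and 2. The same held for 6 of the 9 tested OST subunits. This split was seen in these data and is not named in the labels. The log2 fold change was larger within replicates 3 and 4 in 10 of the 15 genes and 3 of the 9 subunits. The 5 list genes with the largest such difference are given first. Gmppa was 11.3 and 10.3 RPKM in Sel1l CKO libraries 1 and 2 and 15.7 and 16.2 RPKM in libraries 3 and 4. Gmppb was 8.48 and 8.01 RPKM against 11.8 and 11.2 RPKM, Gfpt1 1.61 and 1.80 RPKM against 2.43 and 2.38 RPKM, and Alg12 1.53 and 1.99 RPKM against 2.48 and 2.47 RPKM. Edem2, which trims mannose from misfolded glycoproteins, was 4.15 and 3.88 RPKM against 5.94 and 6.50 RPKM. The log2 fold change of these 5 genes was larger within replicates 3 and 4 than within replicates 1 and 2, by 0.44 for Gmppa, 0.55 for Gmppb, 0.50 for Gfpt1, 0.53 for Alg12 and 0.53 for Edem2. The difference was 0.32 for Alg2, 0.31 for Dpagt1, 0.22 for Sec61a1 and 0.16 for Ssr3, but 0.04 for Uap1. It was -0.002 for Sec61g, -0.04 for Calr, -0.04 for Pdia3, -0.07 for Canx and -0.09 for Sec61b. Among OST subunits the same difference was 0.21 for Tmem258, 0.15 for Ddost, 0.13 for Rpn1, 0.07 for Magt1, -0.05 for Ostc, -0.10 for Krtcap2, -0.11 for Dad1, -0.09 for Ost4, -0.01 for Stt3a, 0.00 for Rpn2 and -0.16 for Stt3b. Sel1l itself was 0.918 and 0.876 RPKM in Sel1l CKO libraries 1 and 2 and 1.32 and 1.23 RPKM in libraries 3 and 4. These genes were singled out after their values were seen, and the differences were not tested.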
